A study of Mus musculus with 30 samples.

Results

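MicroRNA-132 and microRNA-212 are a pair of small RNAs made from adjacent hairpin precursors, Mir132 and Mir212. They were followed here through all 30 small RNA libraries of the series. Reads were assigned to the pair when the whole read sequence matched, in the sense direction and without a mismatch, one of these hairpins in the GENCODE vM21 annotation. These are 2 of the 2202 annotated mouse miRNA hairpins, and 250 distinct sequences were assigned to them, none of which matched both. Each hairpin yields a 5p strand from its 5′ side and a 3p strand from its 3′ side.

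The libraries came from the cortex (prefrontal cortex in the study's text) of mice aged 6 months. AD mice carried the 5XFAD transgenes, which express mutant human amyloid precursor protein and presenilin 1, in the hemizygous state on a C57BL/6J background, and WT mice were their littermates without the transgenes, with males and females in the study. RNA of 15 to 50 nt was cut from a gel and sequenced either directly (traditional-seq, 7 WT and 7 AD libraries) or after treatment with T4PNK, which repairs RNA ends, and AlkB, which removes some base methylations (PANDORA-seq, 8 WT and 8 AD libraries). The study's text counts the libraries within a protocol as separate mice, while the labels name no animal. File names carry 14 codes (7 WT and 7 AD) that occur in both protocols, and the labels do not say that these mark the same mouse. Libraries were therefore treated as independent, and values with the code as a block are given for the results on the protocols.

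The shared transcript of miR-132 and miR-212 is switched on by the transcription factor CREB when neurons fire or receive BDNF, and the pair is studied for its role in dendrite growth, spine formation and plasticity. The 3p strands are the better known silencing strands. Lower miR-132 is among the changes described in brains of patients with Alzheimer's disease.

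In the GRCm38 annotation, both hairpins lay on the plus strand of chromosome 11, with 294 bases from the start of Mir212 to the start of Mir132. Mir212 (ENSMUSG00000065590.1) spanned chr11:75173388-75173478 and Mir132 (ENSMUSG00000065537.2) spanned chr11:75173682-75173747. Both were in intron 1 (chr11:75172598-75173977) of the long non-coding RNA gene 1700016P03Rik, which has 3 annotated exons. The hairpins are shown 5′ to 3′ (RefSeq, GRCm38.p6) because every read was placed on them, with the mature strands in capitals.
Mir212 hairpin: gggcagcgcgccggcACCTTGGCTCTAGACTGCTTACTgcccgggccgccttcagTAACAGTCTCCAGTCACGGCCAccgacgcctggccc
Mir132 hairpin: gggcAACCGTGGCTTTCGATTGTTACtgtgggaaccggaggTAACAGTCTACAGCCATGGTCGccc

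The mature strands follow with the seed, bases 2 to 8, in capitals. The seed is the stretch that pairs with target mRNAs.
miR-132-3p (hairpin bases 42 to 63, chr11:75173723-75173744): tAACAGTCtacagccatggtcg
miR-212-3p (hairpin bases 56 to 77, chr11:75173443-75173464): tAACAGTCtccagtcacggcca
miR-132-5p (hairpin bases 5 to 26, chr11:75173686-75173707): aACCGTGGctttcgattgttac
miR-212-5p (hairpin bases 16 to 38, chr11:75173403-75173425): aCCTTGGCtctagactgcttact

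The 3p strands shared the seed AACAGTC, which no other of the 1679 RefSeq mature mouse miRNAs carried. They were identical over their first 9 bases and at 17 of 22 positions. The 5p strands had different seeds, each found in 1 of the 1679 mature miRNAs, and were the same at 9 of 22 positions. Most miR-132-5p reads did not start at the annotated base, as described with the read starts.

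The traditional-seq libraries held 9370669 to 17053412 reads each, of which 35.9 to 50.3% matched a miRNA hairpin. The PANDORA-seq libraries held 54926347 to 105876141 reads, of which 1.51 to 5.54% did so. Levels are therefore given as reads per 1000000 hairpin reads (hairpin RPM), a scale that sets the pair against other miRNAs. The make-up of hairpin reads differed: 28.3 to 36.8% matched several hairpins in traditional-seq and 43.6 to 60.6% in PANDORA-seq. The pair took 20415 to 70099 reads per traditional-seq library and 634 to 11682 reads per PANDORA-seq library, so values from the latter carry more counting error. At most 0.278% of the pair's reads in any library also matched another annotated transcript, and 8 traditional-seq and 3 PANDORA-seq reads matched the hairpins in antisense. In RNA from whole tissue, fewer cells of a type and less RNA per cell cannot be told apart.

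By exact matching, Mir132 5p was the most abundant arm of the pair in traditional-seq and Mir212 5p in PANDORA-seq, while Mir212 3p was the least abundant in both. In the 14 traditional-seq libraries Mir132 5p averaged 5366 ± 1546 (SD) hairpin RPM and ranked 35th of the 3008 hairpin arms with reads. Mir132 3p averaged 1181 ± 402 (rank 80), Mir212 5p 893 ± 237 (rank 93) and Mir212 3p 50.8 ± 35.2 (rank 320). The levels of Mir132 3p and Mir212 5p overlapped, at 631 to 1962 and 358 to 1186, whereas the lowest Mir132 5p level, 2235, was above the highest of every other arm. These exact levels leave out the Mir132 3p reads with added ends, 75.8 ± 3.76% in traditional-seq, as described below.

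In the 16 PANDORA-seq libraries Mir212 5p averaged 800 ± 331 (SD) hairpin RPM, Mir132 5p 629 ± 396, Mir132 3p 508 ± 249 and Mir212 3p 25.6 ± 38.5. The 3 more abundant arms overlapped widely there, at 55.7 to 1317, 42 to 1653 and 88.2 to 1017. Mir212 3p was read 4 to 294 times per PANDORA-seq library, and its level ran from 1.44 to 148.

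**Figure D1:**
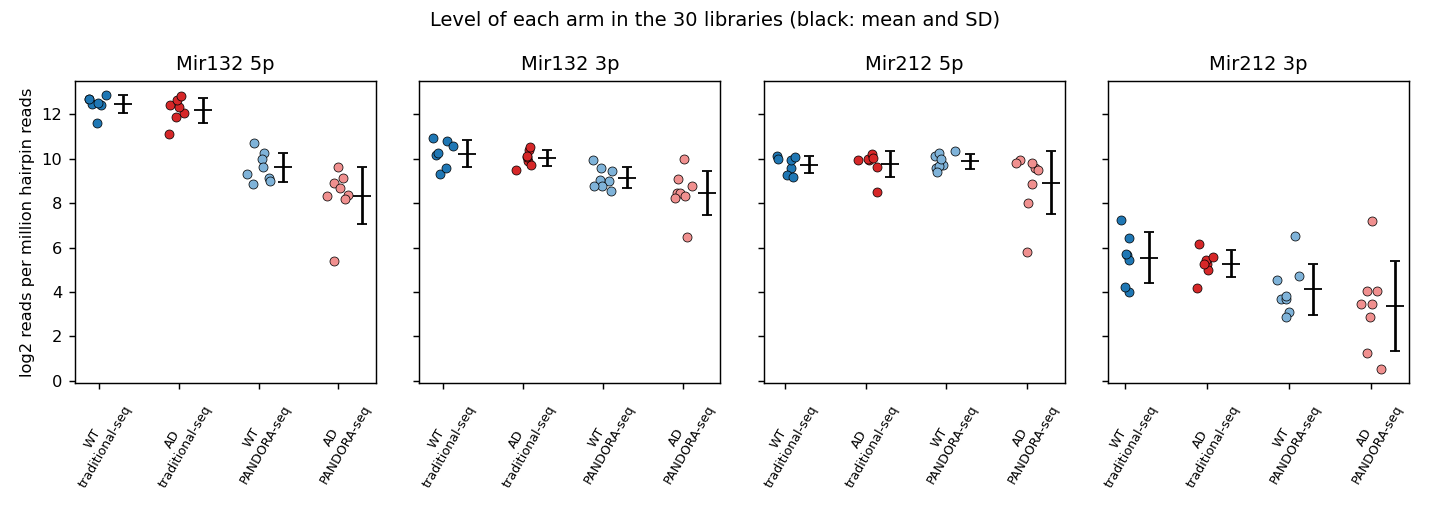
Level of each arm of Mir132 and Mir212 in the 30 libraries, as log2 hairpin RPM (y axis), by genotype and protocol (x axis). Points are libraries, black lines are group means with SD, and WT and AD libraries overlap in every panel and protocol, with 1 low AD PANDORA-seq library at 5.39 for Mir132 5p.

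The first comparison asked whether the pair differed between AD and WT mice in traditional-seq. None of the 4 arms passed the test, and no arm of any other miRNA did, which does not show that the levels were equal. Mir132 3p, the silencing strand, lay at 631, 1208 and 1962 hairpin RPM (lowest, median and highest) in 7 WT libraries and at 725, 1092 and 1463 in 7 AD libraries. The AD libraries thus lay inside the WT range. Mir132 5p lay at 3131, 5811 and 7526 in WT mice and at 2235, 5170 and 7179 in AD mice. Mir212 5p lay at 579, 969.6 and 1098 in WT mice and at 358, 997 and 1186 in AD mice. Both pairs of groups overlapped over most of their range. Mir212 3p, at 15.8, 50.2 and 152 in WT mice and 18, 38.4 and 71.5 in AD mice, overlapped as well.

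The AD to WT log2 fold changes (edgeR quasi-likelihood test, Benjamini-Hochberg over 765 arms, where reads across the middle of a hairpin stand as a feature of their own) were -0.19 ± 0.25 (SE) for Mir132 3p, -0.27 ± 0.29 for Mir132 5p, -0.34 ± 0.36 for Mir212 3p and -0.04 ± 0.30 for Mir212 5p. The adjusted p was 0.998 for each, and the median over all arms was 0.02. Calls needed a fold change over 2 together with an adjusted p under 0.05, and 0.0% of the 765 arms were called by edgeR, 8 of them having an unadjusted p under 0.05. DESeq2 and edgeR's likelihood ratio test also called 0.

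In PANDORA-seq the 5p arm of Mir132 had the lower fitted level in AD mice, but its change did not pass correction over all arms. Mir132 5p lay at 462, 706 and 1653 hairpin RPM in 8 WT libraries and at 42, 368 and 790 in 8 AD libraries. The highest level was in a WT library and the lowest in an AD library, and the groups overlapped between 462 and 790. Its log2 fold change was -1.07 ± 0.40 (SE), with an unadjusted p of 0.0145 and an adjusted p of 0.154 in edgeR over 1291 arms. Over the alternative ways of processing the adjusted p ranged from 0.0978 to 0.528. Without WT PANDORA-seq replicate 6, which held the highest Mir132 5p level, the fold change was -0.62 (adjusted p = 0.396).

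Mir132 3p lay at 373, 514 and 981 in WT mice and at 88.2, 350 and 1017 in AD mice, so that the lowest and the highest level were both in AD libraries. Mir212 5p lay at 681, 919 and 1317 in WT mice and at 55.7, 743 and 979.5 in AD mice. Their log2 fold changes were -0.43 ± 0.32 (SE, adjusted p = 0.635) and -0.57 ± 0.39 (adjusted p = 0.57). Mir212 3p lay at 7.43, 13.5 and 90.3 in WT mice and at 1.44, 11 and 148 in AD mice, with a log2 fold change of 0.02 ± 0.64 (adjusted p = 0.982). That value rested on AD PANDORA-seq replicate 5, the library at 148, and was -0.97 without it.

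Of the 4 member arms, 0 were called in PANDORA-seq, where edgeR called 5 of the 1291 features, all lower in AD mice, or 0.387%. At an unadjusted p under 0.05 there were 246 arms, Mir132 5p among them, and the median log2 fold change over all arms was -0.02. The 5 called features, named here because so few were called, were reads across the middle of the Mir1291, Gm23374, Gm23812, Gm25032 and Gm23419 hairpins, so no 5p or 3p arm was called. Gm23374, Gm23812 and Gm25032 had identical values and are not separate observations. Cell type marker levels, given with no test, also lay apart in part between the genotypes in PANDORA-seq. The summed level of the neuron list (miR-124, miR-128 and miR-137 hairpins, all 6 detected) lay at 72708, 95953 and 139616 hairpin RPM (lowest, median and highest) in WT and at 25737, 70981 and 104553 in AD libraries, and 6 of the 8 AD libraries were below the lowest WT library. In traditional-seq its medians were 228022 in WT and 243375 in AD libraries. A sequence that matches several hairpins counted for each, so a list sum can count a read more than once. AD PANDORA-seq replicates 1 and 6, with the lowest and second lowest Mir132 5p levels (42 and 293), had 29554 and 21645 hairpin RPM of the blood cell list (miR-451a, miR-144 and miR-486, all 3 detected), against 3118 to 11817 in WT libraries. They had 7825 and 10803 of the choroid plexus list (miR-204 and miR-211, both detected), against 2048 to 4576. Replicate 7 was above the WT range in both lists (11987 and 4990) and replicate 4 in the second (4750). Replicate 3, at 329 for Mir132 5p, had 14426 hairpin RPM of the vessel list (miR-126, miR-143 and miR-145, all 3 detected) against at most 6559 in WT libraries, and 2560 of the hindbrain list (miR-10 and miR-196 hairpins, all 4 detected) against at most 1302. Lists also left the WT range in traditional-seq. AD traditional-seq replicate 4 had 21788 hairpin RPM of the muscle list (miR-1a and miR-133a hairpins), against at most 7241 in WT libraries. It had 2955 of the hindbrain list against at most 748. The choroid plexus medians in traditional-seq were 980 in WT and 633 in AD libraries. The liver and muscle lists were above the WT range in some AD PANDORA-seq libraries. The microglia and leukocyte list was above it in replicate 3 alone (74.8 against at most 67.7), with medians of 44.3 in WT and 38.2 in AD libraries. In traditional-seq the medians of that list were 51.8 in WT and 60.9 in AD libraries. AD traditional-seq replicates 1, 2 and 6 had 106, 124 and 103 of it, against at most 71.7 in WT libraries. The part of these markers in the Mir132 levels was not tested.

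Whether the AD effect differed between the protocols was tested by the interaction in a fit of all 30 libraries. The members gave interaction log2 values of -0.63 ± 0.51 (SE) for Mir132 5p, -0.09 ± 0.42 for Mir132 3p, -0.39 ± 0.51 for Mir212 5p and 0.58 ± 0.77 for Mir212 3p, with adjusted p from 0.781 to 0.971. None of the 1508 arms (0.0%) was called by edgeR's quasi-likelihood test, 136 had an unadjusted p under 0.05, and the likelihood ratio test and DESeq2 called 2 each. With the code as a block, in the 28 libraries with shared codes, 0 arms were called and the members lay between -0.31 and 0.086, an alternative added after seeing the data.

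The separate sequences of the pair, its isomiRs or length and end variants, were tested as well. In traditional-seq 32 member sequences were tested and 0 were called, with 30 fitted lower in AD mice and none at an unadjusted p under 0.05, beside 0.0% called, 51.6% fitted lower and 20 at an unadjusted p under 0.05 among the 1925 sequences tested. In PANDORA-seq 22 were tested and 0 were called, against 1.13% of 3449, with 20 fitted lower in AD mice and 12 at an unadjusted p under 0.05. Among all 3449 sequences 43.8% were fitted lower and 381 (11%) had an unadjusted p under 0.05. All 10 tested Mir132 5p sequences were on the lower side in PANDORA-seq, at log2 values of -1.46 to -0.92, and the smallest adjusted p was 0.201. These 10 come from the same arm and the same libraries and are not independent.

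Composition measures of the pair did not separate the genotypes either. Across 17 measures in each protocol (level, share of the pair, arm shares, lengths, start sites and added ends), 0 of 34 two-sided exact permutation tests passed the Benjamini-Hochberg threshold. The total Mir132 level, as log2 RPM of all library reads, was 11.51 ± 0.50 (SD, n = 7) in WT and 11.20 ± 0.62 in AD traditional-seq libraries (exact permutation p = 0.325, adjusted 0.864). It was 5.07 ± 0.72 (n = 8) in WT and 4.38 ± 0.85 in AD PANDORA-seq libraries (exact permutation p = 0.103, adjusted 0.701). For Mir212 the differences between AD and WT means were -0.05 (exact permutation p = 0.846, adjusted 0.898) and -0.65 (exact permutation p = 0.205, adjusted 0.733).

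In PANDORA-seq the 3p arm gave 41.9 ± 10.7% of Mir132 reads in WT libraries and 51.7 ± 9.43% in AD libraries (SD, n = 8, exact permutation p = 0.0741, adjusted 0.630). The 2 measures with an unadjusted p under 0.05 were both lengths of Mir212 in PANDORA-seq. Its reads of 15 to 19 nt made up 1.89 ± 0.482% in WT and 2.76 ± 0.963% in AD mice (SD, n = 8, exact permutation p = 0.0326, adjusted 0.555). Its reads of 20 to 24 nt made up 98.1 ± 0.464% and 97.2 ± 0.974% (exact permutation p = 0.0230, adjusted 0.555).

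The protocols differed far more than the genotypes, and all 4 arms were lower in PANDORA-seq after TMM scaling against other hairpin arms. The log2 fold changes of PANDORA-seq against traditional-seq were -5.78 ± 0.31 (SE, adjusted p = 9.84e-19) for Mir132 5p and -3.80 ± 0.23 (adjusted p = 1.63e-17) for Mir132 3p in edgeR. They were -2.75 ± 0.27 (adjusted p = 7.93e-12) for Mir212 5p and -3.69 ± 0.42 (adjusted p = 3.32e-10) for Mir212 3p. All 4 were called lower, as were 25.9% of the 1508 arms tested. These calls depended on the scaling for Mir212. The median over all arms was 1.99 with TMM, -0.58 with all reads of a library as its size and 4.50 with hairpin reads as its size, and the calls were 843 higher and 391 lower, 566 and 727, and 1256 and 160. With hairpin reads as the size, an alternative added after seeing the data, the log2 values were -3.19 for Mir132 5p, -1.23 for Mir132 3p, -0.97 for Mir212 3p (adjusted p = 0.0499) and -0.19 for Mir212 5p (adjusted p = 0.478), so that the Mir132 arms were called and the Mir212 arms were not. With the code as a block in the 28 libraries, the 4 arms were at -6.26, -4.28, -4.53 and -3.24 in the same order.

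As whole hairpins, Mir212 fell less than Mir132. For the 3p arms the gap depended on how reads were counted: the fitted log2 values were -3.80 ± 0.23 for Mir132 3p and -3.69 ± 0.42 for Mir212 3p (SE) by exact matching, which leaves out most Mir132 3p reads of traditional-seq, and -5.43 ± 0.25 and -3.90 ± 0.42 with reads that carry added ends counted. The difference between the arms was not tested. Mir132 made up 86.7 ± 5.11% (SD, n = 14) of the pair's reads in traditional-seq and 58.3 ± 7.07% (n = 16) in PANDORA-seq, and no library of one protocol reached the range of the other (two-sided permutation p = 1e-05, the smallest that 100000 resamples can give, adjusted 2.43e-05). As a share of hairpin reads, the mean log2 level of Mir132 was 2.68 lower in PANDORA-seq. That of Mir212 was 0.39 lower, a difference that did not pass the test (permutation p = 0.260, adjusted 0.315).

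Read ends differed between the protocols. The first bases of the 3p strands, which set the shared seed, were almost fixed: base 42 of the Mir132 hairpin began 96.1 ± 0.649% of Mir132 3p reads in traditional-seq and 97.2 ± 0.819% in PANDORA-seq, and base 56 began 96.6 ± 1.59% and 96.7 ± 5.09% of Mir212 3p reads (SD, n = 14 and 16). Most Mir132 5p reads began at base 6, 1 base after the RefSeq start, with 73.7 ± 4.82% in traditional-seq and 80.3 ± 1.66% in PANDORA-seq (two-sided permutation p = 1e-05, the smallest possible, adjusted 2.43e-05). A read that starts there has the seed CCGTGGC, which none of the 1679 RefSeq mature miRNAs carried. From that start the 5p strands of Mir132 and Mir212 were the same at 14 of 21 positions.

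Frequent exact sequences of each arm are printed because they show where the reads ended, with bases 2 to 8 in capitals where they were not given above. They are the top 2 of each arm by reads over both protocols, which traditional-seq dominates, and the most frequent Mir132 5p form of PANDORA-seq, added after its values were seen.
Mir132 5p, hairpin bases 6 to 27: aCCGTGGCtttcgattgttact
Mir132 5p, hairpin bases 6 to 24: aCCGTGGCtttcgattgtt
Mir132 5p, hairpin bases 6 to 26: aCCGTGGCtttcgattgttac
Mir132 3p, hairpin bases 42 to 64: tAACAGTCtacagccatggtcgc
Mir212 5p, hairpin bases 16 to 37: aCCTTGGCtctagactgcttac
Mir212 3p, hairpin bases 56 to 74: tAACAGTCtccagtcacgg

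Mir212 5p showed the end shift most plainly. The form ending at base 38, the RefSeq miR-212-5p, made up 80.3 ± 2.68% of the arm in traditional-seq and 7.39 ± 1.81% in PANDORA-seq. By contrast, the form 1 base shorter made up 7.20 ± 1.31% and 78.4 ± 2.07% (SD over 14 and 16 libraries). For both forms the ranges of the protocols lay far apart, at 74.1 to 84.1% against 2.67 to 9.73% for the longer form.

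Mir132 3p had the same kind of shift. The form ending at base 64 was 32.5 ± 8.63% of the arm's exact reads in traditional-seq and 0.0104 ± 0.0287% in PANDORA-seq, where 2 reads of it were found. The RefSeq form ending at base 63 was 31.2 ± 9.85% and 58.3 ± 9.40%. For Mir132 5p, the form ending at base 27 made up 28.9 ± 12.0% in traditional-seq and 1.29 ± 0.555% in PANDORA-seq, and the form of bases 6 to 26 made up 10.8 ± 2.03% and 40.1 ± 5.76%. The most frequent last base was 25 in the first and 26 in the second. The mean last base of Mir132 5p was nevertheless earlier in PANDORA-seq, by -0.67 bases. The 19-nt form of Mir212 3p ending at base 74 made up 39.5 ± 17.5% in traditional-seq and 7.43 ± 15.2% in PANDORA-seq, on few reads in the latter.

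**Figure D2:**
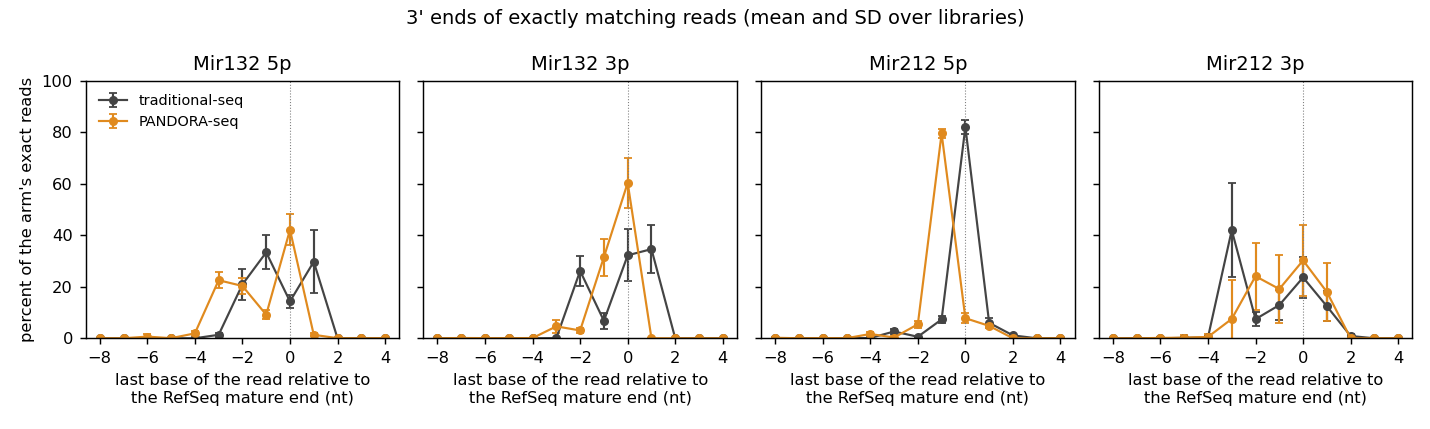
Last base of exactly matching reads of each arm (x axis, nt from the RefSeq mature end, 0 at that end) against the percent of the arm's reads (y axis, mean and SD over 14 traditional-seq and 16 PANDORA-seq libraries). For Mir212 5p the peak lies at 0 in traditional-seq and 1 base earlier in PANDORA-seq, and for Mir132 5p the profile has several peaks in each protocol.

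The shift was common to most miRNA arms. Among 208 arms with at least 1000 reads in each protocol, the most frequent last base was 1 earlier in PANDORA-seq for 145 (69.7%) and the same for 30, and the median shift of the mean last base was -0.88 bases. When the last base of every traditional-seq read was removed, the share of Mir212 5p reads that would need another last base to match the PANDORA-seq profile went from 79.0% to 3.78%. It went from 53.3% to 19.3% for Mir132 5p, from 57.8% to 22.4% for Mir132 3p and from 35.5% to 31.3% for Mir212 3p. This comparison was chosen after the end profiles had been seen. Whether adapter removal left 1 base on the traditional-seq reads before deposit cannot be told from the tables, and the last bases, lengths, added ends, exact-match levels and 3p shares of traditional-seq all rest on the reads as deposited. Why the ends differed was not tested.

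Exact matching left out most Mir132 3p reads in traditional-seq, because they ended with bases that the hairpin does not hold. Added ends were counted for reads that matched a hairpin over their first 18 or more bases and closed with 1 to 3 other bases. The main added-end forms of the 3p strands are shown with the added base in capitals.
Mir132 3p, bases 42 to 63 and 1 added base: taacagtctacagccatggtcgT
Mir212 3p, bases 56 to 77 and 1 added base: taacagtctccagtcacggccaT

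The Mir132 3p form with an added T had 222872 reads in traditional-seq, present in all 14 libraries at 8375 to 35616 reads, while all exact Mir132 3p reads together came to 82797. In PANDORA-seq it had 113 reads, at 1 to 15 per library. Added ends of any kind made up 75.8 ± 3.76% (SD, n = 14) of Mir132 3p reads in traditional-seq and 4.03 ± 0.804% (n = 16) in PANDORA-seq, and the ranges, 67.9 to 81.5% and 2.97 to 5.92%, did not overlap (two-sided permutation p = 1e-05, the smallest possible, adjusted 2.43e-05). With the last base of every traditional-seq read removed, which takes away any single added base, the share there was 1.38 ± 0.693%. PANDORA-seq reads kept their single added bases, so this share cannot be ranked against theirs. The genotypes overlapped, with means of 76.3% in WT and 75.3% in AD mice in traditional-seq (exact permutation p = 0.631, adjusted 0.864).

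Mir212 3p had added ends in 44.6 ± 10.8% of reads in traditional-seq and 24.6 ± 12.0% in PANDORA-seq (SD, n = 14 and 16, two-sided permutation p = 1.5e-04, adjusted 2.32e-04), and its form with an added T had 733 reads in traditional-seq. With the last base removed the traditional-seq share was 13.9 ± 4.26%, which again cannot be ranked against that of the untrimmed PANDORA-seq reads. The 5p strands had fewer in traditional-seq, 18 ± 4.48% for Mir132 and 20.4 ± 5.30% for Mir212, and 1.41 ± 0.520% and 1.37 ± 1.63% in PANDORA-seq (SD). Among the 208 arms with at least 1000 reads in each protocol, Mir132 3p ranked first for added T in traditional-seq, with 69.6% of its reads against a median of 7.83% and an upper quartile of 17.9%. In PANDORA-seq it ranked 53rd, with 2.92% against a median of 0.704%. An added T can be told only where the next hairpin base is not T. For Mir132 3p that base (64) is C, but base 27 of Mir132 5p and base 38 of Mir212 5p are T. An extra T at those places of the 5p strands counted as an exact read. The rank and the lower shares of the 5p strands therefore depend on the hairpin sequence too. Added bases of this kind can come from enzymes in the cell or from library steps, and their source was not tested.

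Counting the added ends changed the balance of the Mir132 arms. By exact matching the 5p arm had a median of 4.48 times the reads of the 3p arm in traditional-seq (2.84 to 10.5) and 1.08 times in PANDORA-seq (0.476 to 3.16). With added ends counted in both arms the medians were 1.32 (0.925 to 2.21) and 1.05. The 3p share of Mir132 was accordingly 18.4 ± 4.27% (SD, n = 14) in traditional-seq and 46.8 ± 11% (n = 16) in PANDORA-seq by exact matching (two-sided permutation p = 1e-05, the smallest possible, adjusted 2.43e-05). It was 42.9 ± 5.73% and 47.5 ± 11% with added ends, a difference of 4.58 percentage points that did not pass the test (permutation p = 0.173, adjusted 0.209).

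Mir212 remained dominated by its 5p arm in every library, with a median of 24 times the 3p reads in traditional-seq (4.99 to 69.5) and 57.3 times in PANDORA-seq (6.63 to 178) by exact matching. Its 3p share was 5.93 ± 4.42% and 2.79 ± 3.18% (SD, n = 14 and 16, two-sided permutation p = 0.0301, adjusted 0.0394). With added ends counted the shares were 8.41 ± 6.05% and 3.41 ± 3.64%, a difference of -5.00 percentage points (permutation p = 0.00851, adjusted 0.0121). The call by exact matching was lost with the code as a pair (adjusted p = 0.0556, exact permutation test over sign flips in 14 pairs) and held with added ends counted too (adjusted p = 0.0176, same exact test). By exact matching it was also lost when any of 16 of the 30 libraries was left out, and with reads of 20 to 24 nt alone the difference was -1.50 percentage points (adjusted p = 0.313).

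**Figure D3:**
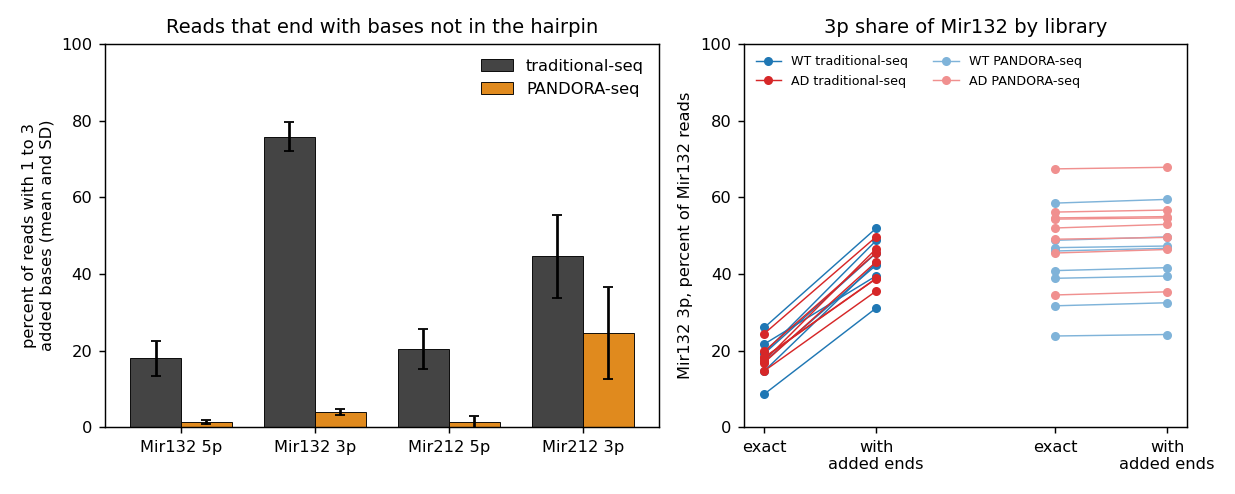
Left, percent of the reads of each arm (x axis) that end with 1 to 3 bases not in the hairpin (y axis, mean and SD over 14 traditional-seq and 16 PANDORA-seq libraries), highest for Mir132 3p in traditional-seq at 75.8%. Right, 3p share of Mir132 reads (y axis, percent) in each library with exact reads alone and with added ends counted (x axis), which moves the traditional-seq libraries from a mean of 18.4% to 42.9% and the PANDORA-seq libraries little.

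Length classes of the reads as deposited differed as well. Mir132 reads of 20 to 24 nt made up 84.9 ± 5.13% (SD, n = 14) in traditional-seq and 76.4 ± 4.25% (n = 16) in PANDORA-seq (two-sided permutation p = 2e-05, adjusted 4.25e-05), and those of 15 to 19 nt 14.9 ± 5.04% and 21.9 ± 3.58% (permutation p = 1.5e-04, adjusted 2.32e-04). For Mir212 reads of 20 to 24 nt made up 97.0 ± 1.32% and 97.6 ± 0.877%, a difference that did not pass the test (permutation p = 0.125, adjusted 0.152). Reads of 25 nt or more went from 0.160 ± 0.233% to 1.69 ± 1.35% for Mir132 (permutation p = 4e-05, adjusted 7.56e-05) and from 0.834 ± 0.361% to 0.0561 ± 0.0718% for Mir212 (permutation p = 1e-05, the smallest possible, adjusted 2.43e-05). Most of these differences depended on the last base of traditional-seq reads. With it removed, an alternative added after seeing the data, Mir132 reads of 15 to 19 nt made up 23.8 ± 6.15% in traditional-seq and those of 20 to 24 nt 76.1 ± 6.21%, and neither differed from PANDORA-seq by the test (permutation p = 0.311 and 0.887, adjusted 0.353 and 0.914). Mir212 reads of 25 nt or more were then at 0.00551 ± 0.0142% in traditional-seq, below PANDORA-seq (permutation p = 0.00967, adjusted 0.0126). Those of 15 to 19 nt were 4.78 ± 1.83% in traditional-seq, above PANDORA-seq, and those of 20 to 24 nt 95.2 ± 1.83%, below it. Both of the latter passed the test (permutation p = 1e-05, the smallest possible, adjusted 1.89e-05). The higher share of Mir132 reads of 25 nt or more in PANDORA-seq remained, at 0.101 ± 0.141% against 1.69 ± 1.35% (permutation p = 1e-05, the smallest possible, adjusted 1.89e-05). Deposited reads ran to 42 nt in traditional-seq and to 45 nt in PANDORA-seq, so the upper limit of this class differed. The part of that limit in the difference was not tested. By the reads as deposited, 13 of the 17 measures passed between the protocols, and 5 of them had no overlap between the libraries. With the libraries of 1 code as a pair (14 pairs, exact permutation test over sign flips, added after seeing the data), 12 of the 17 passed, the Mir212 3p share being the one lost. The 3p share of Mir132 with added ends counted differed by 3.18 percentage points in that test (adjusted p = 0.417, exact permutation).

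Because the 3p strands share a seed and a locus, their levels were compared across libraries as log2 hairpin RPM. In traditional-seq Mir132 3p and Mir212 3p varied together (n = 14, Pearson's r = 0.86, permutation p = 8e-05, adjusted 6.4e-04 over 8 relations, and Spearman's rho = 0.84, permutation p = 2.3e-04, adjusted 0.00184). Without the 2 libraries farthest from the median of Mir132 3p, r was 0.75 (permutation p = 0.00466, adjusted 0.0124). Within WT libraries r was 0.92 (n = 7, exact permutation p = 0.00734, adjusted 0.0147) and within AD libraries 0.65 (n = 7, exact permutation p = 0.105, adjusted 0.105). The matching rho was 0.89 in WT (exact permutation p = 0.0123, adjusted 0.0246) and 0.43 in AD libraries (exact permutation p = 0.354, adjusted 0.354). The relation rested on exact reads: with added ends counted r was 0.38 (permutation p = 0.175), and with at most 1 mismatch it was 0.44 (permutation p = 0.114).

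In PANDORA-seq r was 0.74 (n = 16, permutation p = 0.00152, adjusted 0.00608) and rho was 0.66 (permutation p = 0.00645, adjusted 0.0194), and with added ends r was 0.80. Without the 2 farthest libraries r was 0.61 (permutation p = 0.0200, adjusted 0.0320) and rho 0.51 (permutation p = 0.0639, adjusted 0.102). Within genotypes r was 0.73 in WT libraries (n = 8, exact permutation p = 0.0318, adjusted 0.0424) and 0.73 in AD libraries (n = 8, exact permutation p = 0.0600, adjusted 0.0686). By rank the relation did not pass within either genotype, with rho of 0.48 in WT (exact permutation p = 0.243, adjusted 0.306) and 0.45 in AD libraries (exact permutation p = 0.267, adjusted 0.306). Mir212 3p rested on 78 to 590 reads per traditional-seq library and on as few as 4 in PANDORA-seq.

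**Figure D4:**
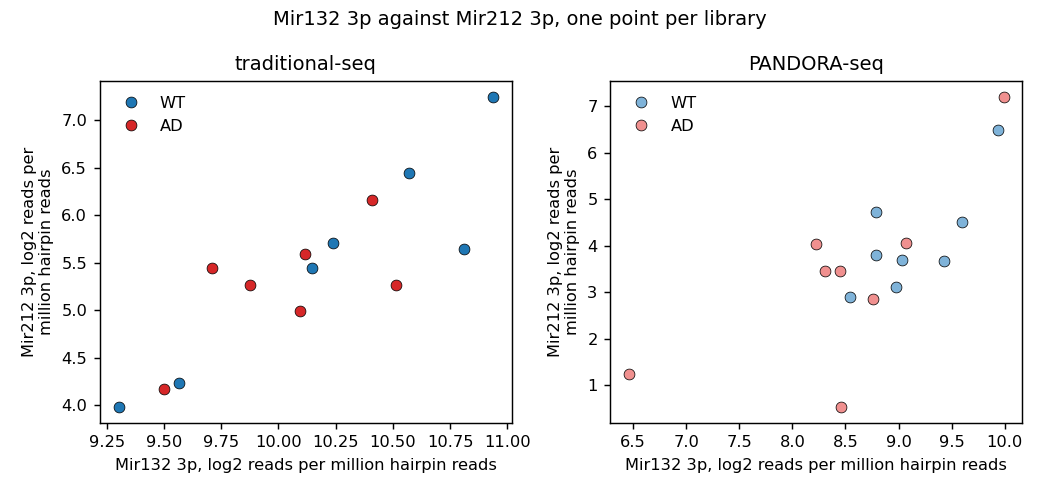
Level of Mir212 3p (y axis) against Mir132 3p (x axis), both as log2 hairpin RPM, with 1 point per library, coloured by genotype, in traditional-seq (left, r = 0.86) and PANDORA-seq (right, r = 0.74). In both panels the points rise together, and in PANDORA-seq 1 AD library lies apart at the low end of Mir132 3p.

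Mir1843a 5p had nearly the same r with Mir132 3p as Mir212 3p had. Among 216 arms with a mean of at least 100 hairpin RPM in traditional-seq, the 5 named as most alike were Mir1843a 5p (r = 0.86), Mir425 5p (0.83), Mir873a 5p (0.77), Mir127 5p (0.77) and Mir139 5p (0.76), over 14 libraries and as a description. Mir1843b 5p (0.79), at rank 3, was passed over because it shares reads with Mir1843a 5p. The median r over all 216 was 0.35, 2 were over 0.8, and the arms share libraries and depth. Mir212 3p, at a mean of 50.8 hairpin RPM, was under the floor of 100. All these r rest on exact reads, and those of the named arms were not computed with added ends counted. In PANDORA-seq (n = 16) the same 5 had r of 0.62, 0.82, 0.67, 0.57 and 0.73. The relation did not extend to the 5p arms in traditional-seq alike. Against Mir132 3p, the partner arm Mir132 5p ranked 36th with r = 0.58 and Mir212 5p ranked 196th with r = -0.15, and Mir212 5p against Mir212 3p had r = -0.27. In PANDORA-seq the r with Mir132 3p was 0.83 for Mir132 5p and 0.82 for Mir212 5p, beside 0.74 for Mir212 3p. These r include AD PANDORA-seq replicate 1, where the log2 levels of both 5p arms were far below the other libraries (5.39 for Mir132 5p and 5.80 for Mir212 5p). The r of the 5p arms were not computed without that library, so no order of the arms follows. The r of the 3p strands ran from 0.69 to 0.81 when a library was left out.

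Other miRNAs regulated by neuronal activity or light were counted beside the pair, from a list of 18 hairpins of which 17 were tested. Between AD and WT mice 0 of their 28 arms were called in traditional-seq, beside 0.0% of all arms, with 15 (53.6%) on the lower side against 47.1% of all arms, and a median log2 fold change of -0.02 against 0.02. In PANDORA-seq 0 of 25 were called, beside 0.387% of all features, and 10 were on the lower side, against 677 of all 1291, with a median of 0.03 against -0.02. An unadjusted p under 0.05 was found for 3 (12.0%), less than the 19.1% over all arms. These 3 were the arms of 1 sensory cluster, Mir183 5p (-2.33 ± 0.87, SE), Mir96 5p (-2.33 ± 0.90) and Mir182 5p (-1.98 ± 0.81), with adjusted p of 0.154, 0.154 and 0.159 in edgeR. Mir183 5p lay at 55.2, 263 and 7121 hairpin RPM in WT mice and at 21.7, 154 and 997 in AD mice, which overlap. The olfactory list (miR-200, miR-141 and miR-429 hairpins, all 5 detected) ran from 102 to 16615 in WT and from 30.4 to 2281 in AD PANDORA-seq libraries, and its part in these values was not tested.

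Between the protocols 23 of 29 arms of that list were called lower and 0 higher with TMM, beside 25.9% of all arms called lower, with a median log2 fold change of -2.56 against 1.99. That count depended on the scaling. With hairpin reads as library size 7 of 29 were called lower and 7 higher (median -0.10 against 4.50 over all arms). Of all 1603 arms, 160 (9.98%) were called lower and 1256 higher there. With all reads as library size 31 of 31 were called lower, beside 44.6% of all 1631 arms (median -3.71 against -0.58). With the code as a block 23 of 27 were called lower, beside 33.7% of all 1171 arms. Named by smallest p with TMM, they were Mir379 5p (-4.96), Mir29b-2 3p (-5.25), Mir29b-1 3p (-5.15), Mir329 3p (-3.20), Mir379 3p (-4.37) and Mir29a 5p (-4.61), and the Mir29b arms share reads. The Mir132 arms, at -5.78 and -3.80, and the Mir212 arms lay in the range of this list, whose values ran from -5.25 to 0.46, except for Mir132 5p, which lay below it. In the interaction 0 of 29 arms were called, beside 0.0% of all, and 1 (3.45%), Mir96 5p, had an unadjusted p under 0.05, against 9.02% of all arms.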

How the data were processed

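Small RNA libraries were sequenced by the authors, adapters were removed before deposit (whether a base was left cannot be told), and the deposited tables list each distinct read sequence with its length and its raw read count. The genome build named in the labels is mm39. Read sequences were matched here to GENCODE vM21 hairpins (GRCm38) in sense, over the whole read and without mismatch, and coordinates are of GRCm38. A sequence that matched several hairpins counted for each, and arms were split at the hairpin's middle, reads that passed it by 5 or more bases on both sides going to neither arm. The edgeR package (4.0.16, R 4.3.3) was fitted to these counts (TMM, filterByExpr with a minimum count of 10 and a minimum total of 15, quasi-likelihood test, genotype or genotype and protocol as terms, Benjamini-Hochberg over all features). DESeq2 1.42.0 served as an alternative. Measures per library were compared with permutation tests in scipy 1.17.1. All 4 arms of the pair are named, with the 5 arms most correlated with Mir132 3p (1 per group of arms that share sequences), up to 6 activity-regulated arms by smallest p and the 2 most frequent sequences of each arm. The members and lists were chosen with earlier results of these data known. The tests were first tried on simulated counts. The labels give the genotypes the same replicate numbers, but deviations of same-numbered libraries correlated at -0.44 to 0.51, so the numbers were not used as pairs. Read counts include copies made by PCR.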

Additional observations from a re-analysis of the deposited data

Results flagged for a closer look

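Among 72 sets of group values checked for a library far from the others, 9 values stood apart by Dixon's test, which picks out about 1 in 20 sets by chance at its 95% critical level. In WT traditional-seq replicate 6 the log2 level of Mir132 in RPM of all library reads was 10.49 (the nearest library had 11.43), Mir132 made up 78.8% of the pair (nearest 86.7%), and the log2 level of Mir132 5p in hairpin RPM was 11.61 (nearest 12.42). In AD PANDORA-seq replicate 1, the library with the lowest neuron list, the log2 levels in hairpin RPM were 5.39 for Mir132 5p (nearest 8.19) and 5.80 for Mir212 5p (nearest 8.00). In AD traditional-seq replicate 3 reads of 25 nt or more made up 0.862% of Mir132 (nearest 0.210%). In AD traditional-seq replicate 2 the log2 level of Mir212 5p was 8.48 (nearest 9.62). The 3p share of Mir212 was 6.85% in WT PANDORA-seq replicate 4 (nearest 3.72%) and 13.1% in AD PANDORA-seq replicate 5 (nearest 4.10%). The cause of these values was not tested.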

How the results depend on the processing

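Between the protocols the 4 arms were on the lower side under every alternative, and all were called except with hairpin reads as library size (added after seeing the data), where Mir212 5p was at -0.19 (adjusted p = 0.478) and Mir212 3p at -0.97, under the fold threshold. No member arm was called between AD and WT mice under any. Between AD and WT mice in PANDORA-seq the 5 called features, all reads across hairpin middles, became 0 with all reads as library size, 1 without sequences that match several hairpins, 0 with reads of 20 to 24 nt alone, 1 with hairpin reads as library size, and 1 to 7 when a library was left out. Between the protocols 1234 called features became 2293 with a loose filter and 578 without sequences that match several hairpins. In the interaction 0 became 2 with the likelihood ratio test, 2 with DESeq2, 1 with DESeq2 size factors, 1 with hairpin reads as library size, 1 without sequences that match several hairpins, and 0 to 1 when a library was left out. IsomiRs called in PANDORA-seq went from 39 to 63 with the likelihood ratio test, 75 with DESeq2 and 102 with a loose filter. The log2 fold change of Mir212 5p in traditional-seq, -0.04, became 0.023 with a loose filter, 0.018 with all reads as library size, 0.059 with hairpin reads as library size, 0.047 with the replicate block, and -0.21 to 0.16 when a library was left out. That of Mir212 3p in PANDORA-seq, 0.02, became -0.99 with DESeq2 (adjusted p = 0.338), -0.039 with at most 1 mismatch, -0.57 with the replicate block, and -0.97 to 0.70 when a library was left out. The interaction of Mir132 3p, -0.09, became 0.011 with the last base of traditional-seq reads removed (an alternative added after seeing the data, like the counting of added ends), 0.061 with the code as a block (also added) and -0.29 to 0.052 when a library was left out. That of Mir212 3p, 0.58, ran from -0.45 to 1.13. The correlation of the 3p arms in traditional-seq, 0.86, became 0.44 with at most 1 mismatch and 0.38 with added ends. The AD to WT difference of the Mir132 3p share in traditional-seq, 0.40 percentage points, became -0.32 with at most 1 mismatch and -0.53 with added ends, and that of base 6 starts in PANDORA-seq, 0.36, became -2.12 with reads of 20 to 24 nt. When a library was left out, AD to WT differences that changed sign ran, in traditional-seq, from -0.16 to 0.10 for log2 Mir212 RPM, and in percentage points from -1.18 to 1.71 for the Mir132 3p share, from -0.17 to 2.82 for base 6 starts, -0.032 to 0.119 for Mir132 and -0.224 to 0.0032 for Mir212 reads of 25 nt or more. In PANDORA-seq they ran from -2.80 to 0.892 for Mir132 in the pair, -0.442 to 1.61 for the Mir212 3p share, -0.110 to 1.96 for Mir132 reads of 20 to 24 nt, -0.246 to 0.471 for those of 25 nt or more, -0.0133 to 0.809 for base 6 starts, -0.271 to 0.125 for added ends of Mir132 3p and -0.0187 to 5.82 for those of Mir212 3p. Between the protocols Mir212 reads of 15 to 19 nt ran from -0.0126 to 0.396. With the code as a block the Mir212 3p share between the protocols was -3.13 percentage points (adjusted p = 0.0556) and with added ends counted too -4.96 (adjusted p = 0.0176). With the last base of traditional-seq reads removed, differences between the protocols that changed sign were, in percentage points, -1.86 and -2.46 for Mir132 and Mir212 reads of 15 to 19 nt, 0.27 for Mir132 reads of 20 to 24 nt, 0.051 for Mir212 reads of 25 nt or more, and 2.65 and 10.7 for added ends of Mir132 3p and Mir212 3p. For added ends the removal took single added bases from traditional-seq alone, so no conclusion follows from that sign change. The replicate block left Mir132 5p in PANDORA-seq at -0.98 (adjusted p = 0.528) and changed no call of a member. The causes were not tested. Depth limits Mir212 3p most, with as few as 4 reads in a PANDORA-seq library.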
